A study of Arabidopsis thaliana with 3 samples.

Results

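The genes examined here encode 10 catalytic subunits of chromatin remodelling complexes in Arabidopsis: BRM, SYD, CHR12, CHR23, PKL, INO80, DDM1, PIE1, CHR11 and CHR17. They were chosen by locus identifier, by a rule that uses no measured value but was written with earlier results of these data known, out of 27444 protein-coding genes annotated on chromosomes 1 to 5. For each gene, the peaks that overlapped the gene body or the 1000 bp upstream of it by at least 1 bp were taken, and the one with the highest fold enrichment was called the leading peak. The study mapped the chromatin occupancy of UBP5, a ubiquitin protease that removes ubiquitin from histone H2A, by chromatin immunoprecipitation and sequencing (ChIP-seq). The samples were 2 biological replicates of the UBP5-GFP immunoprecipitate (IP), followed by 1 input of sheared chromatin taken without antibody. All of them came from whole seedlings at 12 days after germination (DAG) of the line UBP5pro::gUBP5-GFP;ubp5. This is a ubp5 mutant in the Col-0 background in which genomic UBP5 fused to the green fluorescent protein (GFP) is expressed from its own promoter. Chromatin was fixed with 25 mM EGS and then 1% formaldehyde, and the antibody was directed against GFP. Plants without the fusion were not analysed here, so UBP5 binding and any unspecific IP signal that the input lacks cannot be told apart. Whole seedlings mix many cell types, so a peak in few cells and a weaker peak in all cells cannot be told apart either.

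Remodelling ATPases of the Snf2 family use the energy of ATP to slide, evict or restructure nucleosomes, the units in which DNA is wrapped around histones. In plants, the SWI/SNF enzymes BRM and SYD are known for opening chromatin at developmental genes and for counteracting Polycomb repression, whereas PKL, a CHD3-type enzyme, is known for keeping embryonic genes silent together with the Polycomb mark H3K27me3. PIE1 and INO80 act on the histone variant H2A.Z, the ISWI enzymes CHR11 and CHR17 space nucleosomes along genes, and DDM1 maintains DNA methylation and silences transposons. The data do not show where these enzymes bind. They show whether UBP5-GFP was found on the genes that encode them.

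UBP5-GFP peaks were present at all of these genes. A peak was called at 10 of the 10 genes in both replicates, against 9337 of 27444 protein-coding genes (34%). At CHR17 the peak found in both replicates lay in the upstream window, inside a neighbouring gene. In replicate 1 alone it was 10 genes against 38.9% of all protein-coding genes, and in replicate 2 alone 10 genes against 36.6%. The ATPase genes are long, with a median length of 7612 bp against 2078 bp over all protein-coding genes. Among the 2600 protein-coding genes between 4295 and 17067 bp, the shortest and the longest of the ATPase genes, 1366 had a peak in both replicates (52.5%). The signal was of ordinary strength, since the median leading peak was enriched 2.52-fold in replicate 1 and 2.04-fold in replicate 2, against 2.54-fold and 2.03-fold over all genes called in both. A fold enrichment here is the IP pileup over the summit plus 1, divided by the level that the peak caller took from the input plus 1. With 2 replicates of a single group, values are given with their SD and no test between replicates was made.

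The sequences at or near the summits are shown first, because the genes differed in the short words found there. The words searched on both strands were the Telobox, AAACCCTA, and a GAGA word, GAGAGAGA, which have been linked to Polycomb recruitment in plants. Capitals mark the word, and each stretch is from the RefSeq TAIR10.1 assembly, read 5′ to 3′ along the strand of the gene. The SYD stretch, chr2:12056360-12056460 on the plus strand, lies in the first intron, and its summit falls within the stretch. The PKL stretch, chr2:10714035-10714135 on the plus strand, also lies in the first intron and holds both words.
SYD: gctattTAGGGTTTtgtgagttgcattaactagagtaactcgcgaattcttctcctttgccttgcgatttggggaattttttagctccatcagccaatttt
PKL: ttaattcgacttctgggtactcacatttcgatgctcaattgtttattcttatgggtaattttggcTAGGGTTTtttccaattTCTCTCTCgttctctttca

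In SYD and PKL the Telobox reads as its reverse complement, TAGGGTTT, on the strand of the gene. In PIE1 it reads forward, in the 5′ UTR at chr3:4065528-4065557 on the plus strand. In BRM the GAGA word is drawn out into an unbroken run of 30 bp in the 5′ UTR, chr2:18923098-18923127 on the plus strand, which contains 12 overlapping copies. The centres of these copies lie 101.5 to 123.5 bp downstream of the summit of replicate 1, and 64.5 to 86.5 bp downstream of that of replicate 2.
PIE1: cgctgaagtggAAACCCTAatttcttgggc
BRM: TCTCTCTCTCTCTCTCTCTCTCTCTCTCTC

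CHR12 and CHR23, which encode a pair of closely related enzymes, each hold a single GAGA word, read as TCTCTCTC along the gene, in the coding part of exon 1. The stretches run from the word towards the summit of each gene, at chr3:1807036-1807126 on the minus strand for CHR12 and chr5:6499048-6499138 on the plus strand for CHR23.
CHR12: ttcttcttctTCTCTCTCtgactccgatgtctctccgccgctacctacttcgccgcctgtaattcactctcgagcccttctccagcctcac
CHR23: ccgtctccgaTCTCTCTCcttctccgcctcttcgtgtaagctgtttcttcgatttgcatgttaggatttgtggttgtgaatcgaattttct

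CHR11 and CHR17 are another related pair and hold neither word within 100 bp of the summits shown here. In CHR17 a Telobox lay 173.5 bp downstream of that summit, in intron 1. Their stretches cover the same distance from the start codon in coding exon 1, at chr3:1941176-1941263 on the plus strand for CHR11 and chr5:6201861-6201948 on the minus strand for CHR17. Here the capitals mark 9 bases at the summit, that of replicate 1 for CHR11 and that of replicate 2, the only one there, for CHR17.
CHR11: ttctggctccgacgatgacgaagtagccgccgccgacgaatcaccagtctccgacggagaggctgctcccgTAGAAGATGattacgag
CHR17: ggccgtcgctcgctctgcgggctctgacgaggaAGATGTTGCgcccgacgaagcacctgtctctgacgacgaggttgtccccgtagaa

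The 2 large SWI/SNF ATPases had the strongest peaks of the group. BRM (AT2G46020, chr2:18922533-18932055, plus strand), which encodes the BRAHMA ATPase, reached a fold enrichment of 3.51 at its leading peak in the first replicate and 2.74 in the second, a mean of 3.13 ± 0.549 (SD, n = 2). The −log10 q at its summit was 37.0 and 54.0. SYD (AT2G28290, chr2:12056213-12073279, plus strand), which encodes the related ATPase SPLAYED, had fold enrichments of 3.47 and 2.83, a mean of 3.15 ± 0.451 (SD, n = 2), and −log10 q values of 35.9 and 59.3. Of all called genes, 84.8% had a lower mean than BRM and 85.3% a lower mean than SYD, and the order of this pair changed between the replicates. In fragments, the BRM summit carried 157 in replicate 1 and 463 in replicate 2, where the caller expected 43.96 and 168.3. The SYD summit carried 155 and 479.

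The 2 smaller SWI/SNF ATPases were weaker. CHR12 (AT3G06010, chr3:1802141-1807530, minus strand), known for its part in growth arrest under stress, had fold enrichments of 2.54 and 2.12, a mean of 2.33 ± 0.295 (SD, n = 2), with −log10 q values of 15.9 and 24.9. CHR23 (AT5G19310, chr5:6498743-6503692, plus strand), its close relative, had 1.80 and 1.99, a mean of 1.90 ± 0.132 (SD, n = 2). CHR23 was the only one of the 10 genes with the higher value in replicate 2, at a ratio of replicate 1 to replicate 2 of 0.906. Its replicate 1 peak held 80 fragments with a 95% Poisson interval of 63.4 to 99.6, which puts the fold enrichment between 1.43 and 2.24. The replicate 2 interval was 1.78 to 2.21. Setting the 2 side by side leaves out the shift between the replicates. Replicate 1 was higher at 97.2% of all called genes, with a median ratio of 1.24. Why CHR23 went the other way was not tested. The −log10 q of CHR23 was 4.83 in replicate 1 and 19.9 in replicate 2. The 95% intervals of CHR12 in replicate 1, 2.09 to 3.04, and of CHR23, 1.43 to 2.24 overlapped, as did those of replicate 2. These intervals, and those below, cover counting error only and treat each fragment as independent.

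**Figure D1:**
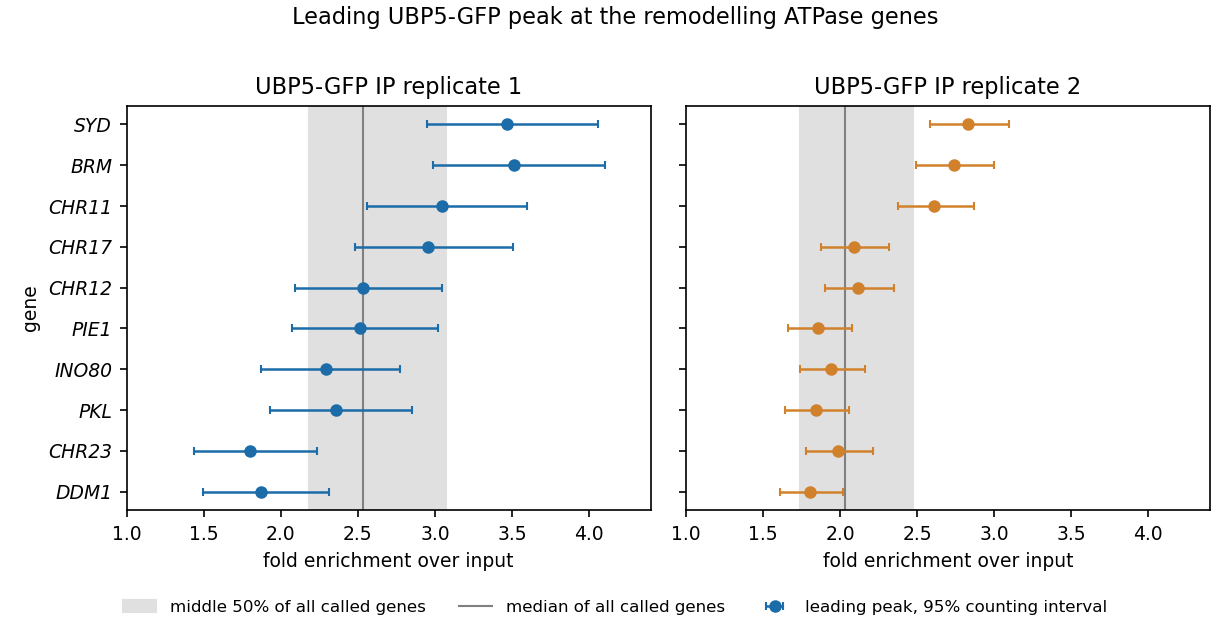
Fold enrichment over input (x axis) of the leading peak of each ATPase gene (rows, ordered by the mean of both replicates) in IP replicate 1 (left) and replicate 2 (right), with 95% Poisson counting intervals. The grey band holds the middle 50% of all called protein-coding genes and the line their median. BRM and SYD lie above the band in both replicates, at 3.51 and 3.47 in replicate 1 and 2.74 and 2.83 in replicate 2, while CHR23 and DDM1 lie below it in replicate 1, at 1.80 and 1.87.

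PKL (AT2G25170, chr2:10713807-10724106, plus strand), the CHD3-type ATPase PICKLE that represses embryonic traits after germination, had fold enrichments of 2.36 and 1.84, a mean of 2.10 ± 0.365 (SD, n = 2), and −log10 q values of 12.8 and 14.8. Its summits held 105 and 311 fragments. The mean of PKL was below the median of the called genes, of which 36.8% had a lower mean.

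The ATPases of the complexes that act on H2A.Z were in the middle of the group. PIE1 (AT3G12810, chr3:4065042-4074194, plus strand), the catalytic subunit of the SWR1 complex that deposits H2A.Z, had 2.51 and 1.86, a mean of 2.19 ± 0.463 (SD, n = 2). INO80 (AT3G57300, chr3:21199150-21207893, plus strand), known for roles in recombination and in H2A.Z dynamics, had 2.29 and 1.94, a mean of 2.12 ± 0.247 (SD, n = 2). The means of PIE1, INO80 and PKL were closer to each other than the SD of any of these genes. The −log10 q values were 15.5 and 15.4 for PIE1, and 11.7 and 18.4 for INO80.

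DDM1 (AT5G66750, chr5:26648897-26653191, plus strand), the remodeller needed for DNA methylation in heterochromatin, had the lowest mean of the 10 genes. Its leading peak reached 1.87 and 1.81, a mean of 1.84 ± 0.0440 (SD, n = 2), with −log10 q values of 5.63 and 13.8. Only 13.0% of the called genes had a lower mean, and DDM1 was also the shortest of the ATPase genes, at 4295 bp.

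The 2 ISWI genes differed in where their signal lay. CHR11 (AT3G06400, chr3:1940907-1946980, plus strand) had a leading peak of 3.05 and 2.61, a mean of 2.83 ± 0.306 (SD, n = 2), with 136 and 442 fragments at the summit. That peak sat 344 and 348 bp downstream of the annotated gene start, in coding exon 1. CHR17 (AT5G18620, chr5:6195689-6202168, minus strand), which encodes a near copy of the CHR11 enzyme, had a leading peak of 2.96 and 2.09, a mean of 2.52 ± 0.615 (SD, n = 2), but it lay upstream, with summits at −620 and −715 bp from its gene start. Both upstream summits fell inside the neighbouring gene AT5G18630, which is transcribed the other way, 252 and 347 bp downstream of that gene's own start. At the start of CHR17 itself a peak was called only in replicate 2, with a fold enrichment of 1.71, 289 fragments and a −log10 q of 10.9, 257 bp downstream of the gene start in coding exon 1. Replicate 1 had no peak there, and its signal at this place was not measured. The lowest fold enrichment among the replicate 1 peaks called at the background level was 1.53. The leading peak of CHR17 therefore counts for CHR17 through the upstream window, and with gene bodies alone CHR17 had no peak in replicate 1. The windows of CHR11 and CHR17 share 39 distinct stretches of 31 bases, counted at every start position, so that stretches can overlap. None of these lay under a peak of either gene.

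Ordered by mean fold enrichment, the genes ran SYD, BRM, CHR11, CHR17, CHR12, PIE1, INO80, PKL, CHR23, DDM1. None of the neighbours in this order differed by more than the larger of their SDs. These SDs include the shift between the replicates, as replicate 1 was higher at 97.2% of all called genes. The order was the same in both replicates for 3 of the neighbouring pairs, BRM over CHR11, CHR11 over CHR17 and CHR12 over PIE1. BRM, SYD and CHR11 took the first 3 places in both replicates, while CHR23 was last in replicate 1 and in place 6 in replicate 2. The mean of 5 of the genes was above the median mean of all called genes. The place of CHR17 in this order and among these 5 rests on the peak inside AT5G18630, while its own start-site peak had 1.71 in replicate 2 and was not called in replicate 1.

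Replicate 1 had the higher fold enrichment at 9 of the 10 genes, as it did at 97.2% of all called genes. The ratio of replicate 1 to replicate 2 had a median of 1.21 over the ATPase genes, ranging from 0.906 at CHR23 to 1.42 at CHR17, against a median of 1.24 over all called genes. Of the 10 genes, 8 lay between the 5th and the 95th percentile of called genes, 1.04 and 1.48, with CHR23 and DDM1, at 0.906 and 1.03, below it. The replicates differed in depth. The background level behind most peaks was 43.98 fragments in replicate 1 and 168.2 in replicate 2. Among the peaks called at that level, the lowest fold enrichment was 1.53 in replicate 1 and 1.32 in replicate 2. The −log10 q was larger in replicate 2 at all but PIE1 and CHR17, and the part of depth in the lower fold enrichments of replicate 2 was not tested.

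**Figure D2:**
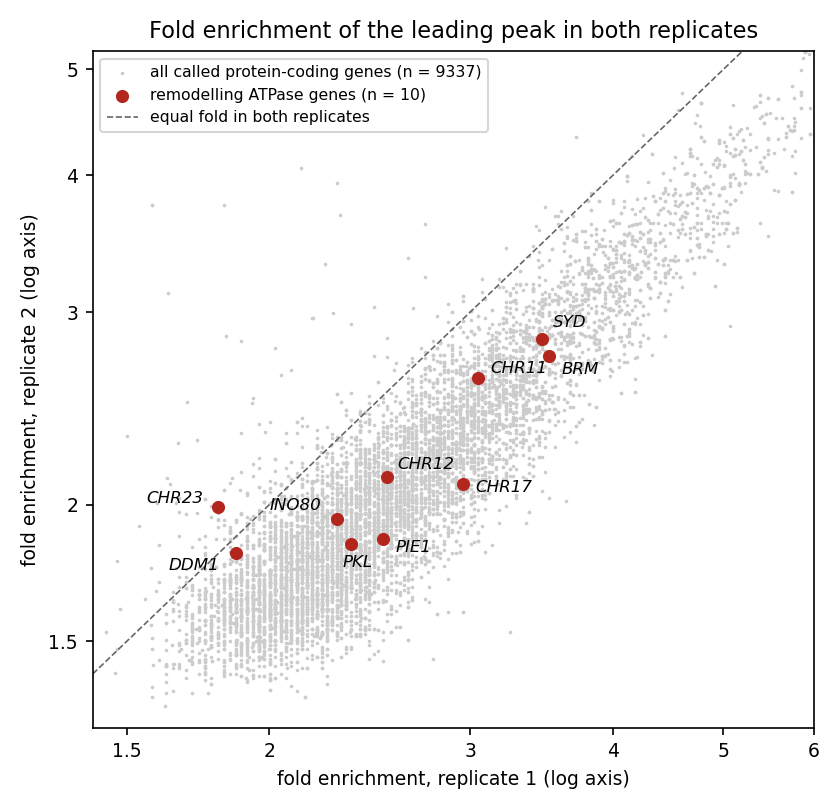
Fold enrichment of the leading peak in replicate 1 (x axis) and replicate 2 (y axis), both on log axes, for 9337 protein-coding genes with a peak in both replicates (grey) and the 10 ATPase genes (red); 131 genes with higher values lie outside the axes. The ATPase genes lie within the cloud of called genes and under the dashed line of equal values, except CHR23, at 1.80 and 1.99, which lies above it.

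The peaks lay around the beginning of these long genes. Together the gene bodies and upstream windows spanned 92.0 kb, of which peaks covered 5.36% in replicate 1 and 5.46% in replicate 2, with 11 and 12 peaks. The summit farthest downstream was that of INO80, at 553 bp from the gene start, and no peak of any ATPase gene reached beyond 974 bp, the far edge of the BRM peak. Of the called genes in the same range of lengths, 1274 of 1366 (93.3%) likewise had no summit more than 1000 bp downstream of the start in either replicate. A start-site peak, with a summit 0 to 1000 bp downstream of the gene start, was present in both replicates at 9 of the 10 ATPase genes, all but CHR17, against 7431 of the 9337 called genes (79.6%).

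Counted from the outermost gene start, the leading summits of BRM, CHR12, CHR23, INO80, PIE1 and CHR11 lay further into the gene than that of the median called gene, and those of SYD, PKL and DDM1 nearer to the start. With the ATPase genes alone counted from the start of the transcript for the longest protein, 4 of them exceeded that median, BRM, CHR12, CHR23 and PIE1, and the members' median was 267.5 bp. From the outermost start, the median distance was 361.5 bp (replicate 1) and 370.5 bp (replicate 2), with the upstream summits of CHR17 included, against 291 and 296 bp over all called genes and 300.5 and 308 bp over those of the same length range. By gene, the summits were at 467 and 504 bp in BRM, 480 and 490 bp in CHR12, 379 and 393 bp in CHR23, and 197 and 194 bp in SYD. They were at 248 and 233 bp in PKL, 553 and 531 bp in INO80, 436 and 467 bp in PIE1, and 242 and 268 bp in DDM1. Apart from CHR17, where they were 95 bp apart, the summits of the replicates were between 3 and 37 bp apart.

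Most of the leading summits were intronic. In both replicates the leading summit fell in an intron at 6 of the 10 ATPase genes, namely intron 1 of SYD, CHR12, CHR23, PKL and DDM1 and intron 2 of INO80. Over all called genes the share was 24.9% in each replicate, and over those of the same length range 27.6% and 28.3%. The summit fell in the 5′ UTR at BRM and PIE1, both in exon 1, and in a coding exon at CHR11. Among all called genes a coding exon was the most frequent place, at 41.1% in replicate 1 and 42.1% in replicate 2. In SYD and PKL the intron lies before the start codon, which is 558 bp from the gene start in SYD and 604 bp in PKL. Their annotation holds transcripts with different starts. Measured from the start of the transcript that encodes the longest protein, the summits lay upstream, at −361 and −364 bp in SYD and at −10 and −25 bp in PKL.

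**Figure D3:**
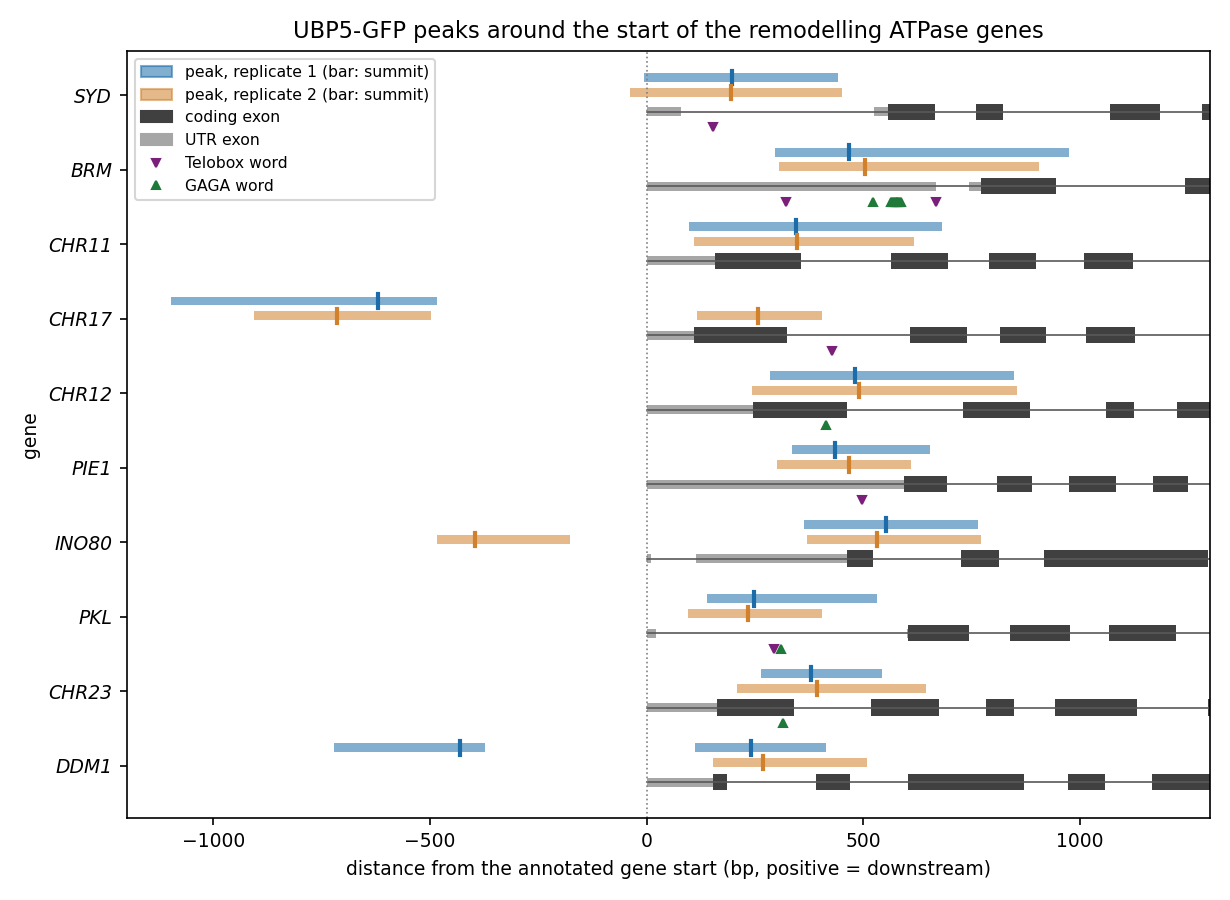
Peaks of replicate 1 (blue) and replicate 2 (orange) at the 10 ATPase genes against the distance in bp from the annotated gene start (x axis), with the summit as a vertical bar and the exons of the transcript that begins there underneath (dark, coding; grey, UTR). Triangles mark Telobox and GAGA words within 250 bp of a summit. All summits but those upstream of CHR17, INO80 and DDM1 lie between 194 and 553 bp downstream of the start.

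Weaker peaks upstream lay inside neighbouring genes. INO80 had a further peak of 1.46 in replicate 2 only, at −397 bp from its start and inside EIF3E, which encodes a subunit of a translation initiation factor. The starts of INO80 and EIF3E are 169 bp apart. DDM1 had a further peak of 1.69 in replicate 1 only, at −431 bp and inside AT5G66740. Several leading peaks also lay in the 1000 bp upstream window of a gene on the opposite strand, so that they count for both genes. This was the case for BRM and AT2G46000, whose starts are 354 bp apart, for PKL and AT2G25169 (207 bp), for INO80 and EIF3E (169 bp), for PIE1 and SDRB (183 bp), and for SYD and the pseudogene AT2G28280 (460 bp). The neighbours of PKL and INO80 start inside the ATPase gene and overlap it, while those of BRM, PIE1 and SYD start upstream of it. The summits lay inside the ATPase gene at each of the pairs named. Only the PKL peak reached the body of the neighbour, and its summits were outside that body, at −41 and −26 bp from the start of the neighbour. The leading peaks of CHR12, CHR23, CHR11 and DDM1 were shared with no other gene.

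Within 100 bp of the leading summit, the genes differed in the short words they held. The Telobox lay within 100 bp of the leading summit in SYD, PKL and PIE1 in both replicates, 3 of 10 genes, against 14.7% of all summits in replicate 1 and 13.7% in replicate 2. The GAGA word lay within that distance in BRM, CHR12, CHR23 and PKL, 4 of 10 genes, against 6.69% and 5.77% of all summits. The shares are over summits in any place, and none is given for summits in introns or 5′ UTRs alone. These counts depended on the window. Within 50 bp, the GAGA word was found at 0 genes in replicate 1 and 1 in replicate 2, against 3.23% and 2.78% of all summits, and within 250 bp still at 4 genes, against 20.3% and 18.1%. The Telobox was found within 50 bp at 1 and 2 genes, against 7.49% and 6.78%, and within 250 bp at 4 genes in both replicates, against 30.97% and 29.7%. Within 100 bp, either word was present at 6 genes, against 20.4% and 18.6% of all summits, and PKL was the only gene with both. INO80, DDM1, CHR11 and CHR17 had neither. A match in so short a window describes the sequence and does not mark a bound site.

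The words lay on either side of the summits. Counted along the gene, the Telobox centre was at −40.5 and −37.5 bp from the summits of replicate 1 and 2 in SYD, at +48.5 and +63.5 bp in PKL, and at +64.5 and +33.5 bp in PIE1. The GAGA word of CHR12 lay at −62.5 and −72.5 bp and that of CHR23 at −60.5 and −74.5 bp. From the gene start, the word began at 414 bp in CHR12 and at 315 bp in CHR23. From the start codon, the summits lay at 234 and 244 bp in CHR12 and at 216 and 230 bp in CHR23. The windows of CHR12 and CHR23 share 16 stretches of 31 bases, again counted at every start position, none of them under a peak. The BRM run began 565 bp and ended 594 bp from the gene start. A separate GAGA word on the other strand began at 522 bp, with its centre 58.5 and 21.5 bp downstream of the summits, and was the only one within 100 bp in replicate 1. BRM also held the Telobox on either side of its summits, at −141.5 and −178.5 bp and at +205.5 and +168.5 bp, outside the 100 bp window. BRM and SYD shared no stretch of 31 bases.

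Base composition at the summits was ordinary. The GC content within 100 bp of the leading summit had a median of 41.5% in replicate 1 and 41.3% in replicate 2 over the ATPase genes, against 41.3% and 41.8% over all summits. PKL was lowest, at 34.8% and 34.3%, and CHR11 highest, at 48.8% and 48.3%. Whether the longer sequenced reads could be placed was not measured. Stretches of 31 bases found more than once in the genome began at no more than 2.80% of the start positions of any window, the highest being SYD. Under the peaks they were found only in BRM, where 8 such stretches, which can overlap, made up 1.23% of the start positions.

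The other genes of the family and the partners of these enzymes were looked at as 4 lists. Of 29 other Snf2-family ATPase genes, 20 had a peak in both replicates (69.0%), 2 in replicate 2 only and 7 in neither. The share over all protein-coding genes, to be read beside this and the other lists, was 34%, and over genes of the members' lengths 52.5%. Their median fold enrichment was 2.69 and 2.23, against the 2.54 and 2.03 of all called genes. The highest mean was at AT1G05120, a helicase gene of the family, with 4.56 and 3.75, above that of each of the 10 ATPase genes. Genes without a peak in either replicate included PKR2, a close relative of PKL, as well as AT3G16600, AT5G43530, CHR31 and CHR38.

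Genes for the accessory subunits of SWI/SNF complexes had the strongest signal of the lists. A peak was called in both replicates at 13 of 14 (92.9%), and the mean fold enrichment of all 13 was above the median of called genes. Their medians of 3.47 and 3.11 compare with 3.51 and 2.74 at BRM and 3.47 and 2.83 at SYD, the 2 large SWI/SNF ATPases. The 2 smaller SWI/SNF ATPases were below these medians, at 2.54 and 2.12 for CHR12 and 1.80 and 1.99 for CHR23. LFR, which encodes an armadillo repeat subunit, was highest, with 4.76 and 3.88, and the bromodomain gene AT5G55040 was the gene without a peak. These genes are shorter than the ATPase genes, with a median of 2546 bp.

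Among the accessory subunits of the SWR1 and INO80 complexes, 7 of 13 genes had a peak in both replicates (53.8%), 2 in replicate 1 only and 4 in neither, while PIE1 and INO80 themselves both had one. The medians were 2.45 and 1.96, near the 2.51 and 1.86 of PIE1 and the 2.29 and 1.94 of INO80. AT2G47210, which encodes the SWC4 subunit, had the highest value with 5.67 and 4.33, and its summit lay 1340 and 1372 bp downstream of its start. ARP6, which encodes an actin-related subunit of SWR1, had no peak in either replicate, and neither had GAS41, RIN1 or AT3G49830. Of 5 partners of the ISWI enzymes CHR11 and CHR17, 4 had a peak in both replicates (80%), with medians of 2.42 and 2.01. FHA2, which encodes a forkhead-associated domain protein, was highest with 5.87 and 5.12, and HB-1, a homeobox gene also called RLT1, had no peak.

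**Figure D4:**
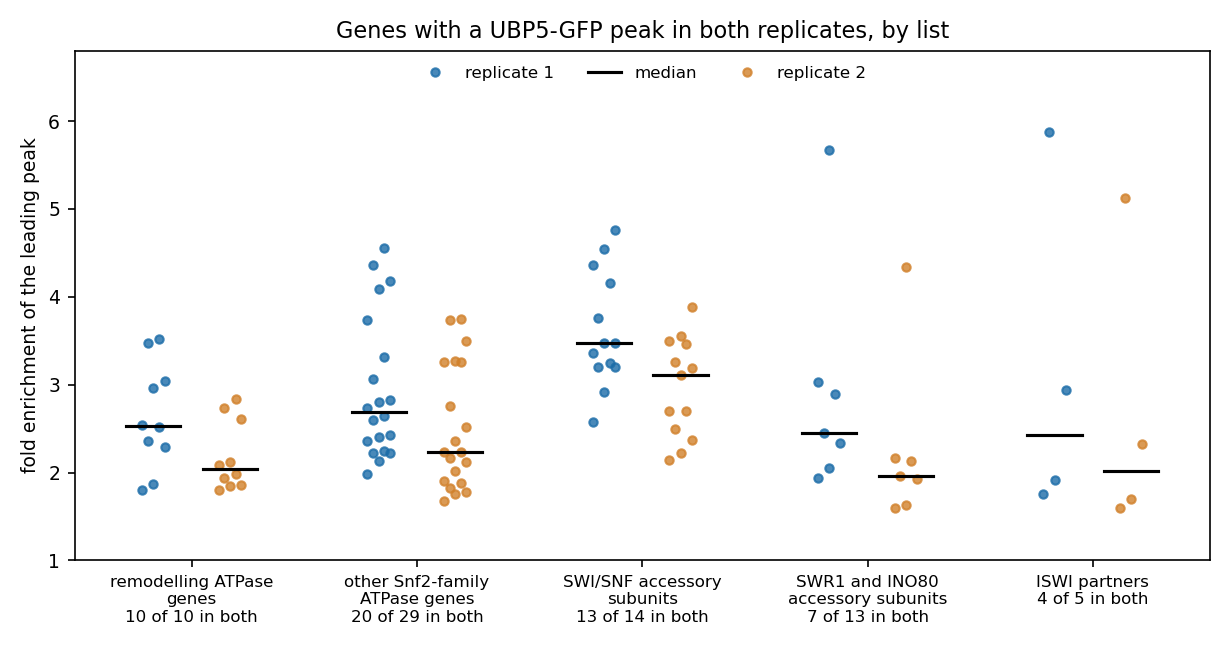
Fold enrichment of the leading peak (y axis) at genes with a peak in both replicates, for the 10 ATPase genes (left) and the 4 lists of related genes, in replicate 1 (blue) and replicate 2 (orange), with medians as black bars. Medians are 2.52 and 2.04 for the ATPase genes and 3.47 and 3.11 for the SWI/SNF accessory subunits, and the highest value, 5.87, is at FHA2.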

How the data were processed

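The members were selected by locus, and they, the lists of related genes and the settings were chosen with earlier results of these data known. UBP5-GFP IP from 12 DAG seedlings was sequenced in 2 replicates with 1 input, and groups were taken from the sample labels, whose antibody entry reads UBP5 while the protocol gives anti-GFP. Per the study's methods, reads were filtered with SOAPnuke, aligned to TAIR10 with Bowtie2 2.4.5, restricted to unique alignments and used for peak calling with MACS3 3.0.0, with the single input as control for each replicate and a q-value threshold of 0.01. Picard and deepTools are named in the submitters' processing notes. Removal of duplicates is not described for them. The fold enrichment, as deposited by the authors, is the ratio of the IP pileup plus 1 to the local level computed from the input plus 1. The deposited −log10 p-values and −log10 q-values grow with depth. The integer score that the authors' caller derived was not used.

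Replicate 1 had 10266 and replicate 2 had 10898 peaks on chromosomes 1 to 5, with a median fold enrichment of 2.31 and 1.92. Read totals were not analysed here. The background level was solved from the fold enrichment and p-value, and 81.9% and 83.9% of the peaks were at that level. Pileups were then whole fragments within 0.1 at 100% and 99.9% of these peaks, with 1 fragment counting as 0.726 in replicate 2, which had been scaled down. Poisson 95% intervals were computed on those fragments.

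Genes, exons and sequence were from RefSeq TAIR10.1, whose chromosome ends no peak exceeded. The tables used here hold no protein sequences. The gene start was the outermost annotated start, and places refer to the transcript beginning there. Text names all members, for each list the gene with the highest mean fold enrichment and up to 5 genes without a peak, and neighbours that share a leading peak; genes under Other observations were chosen after their values were seen. RefSeq gives DDM1 as CHR1. No set test was made. Calculations were tested on simulated peaks. Python 3.11.15, numpy 2.4.6, pandas 2.3.3, scipy 1.17.1 and matplotlib 3.10.9 were used. Alternatives covered q-value, fold enrichment, overlap, window, gene start, choice of the leading peak, word length and each replicate alone.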

Additional observations from a re-analysis of the deposited data

How the results depend on the processing

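The count of 10 of 10 genes depended on the fold threshold. With a fold enrichment of at least 2 in both replicates, 5 of the 10 ATPase genes were called, against 4857 of 27444 protein-coding genes. The 5 include CHR17, which passed only through the upstream peak inside AT5G18630. With at least 3 it was 0 of 10 against 1066 of 27444. No share over genes of the members' lengths is given at these thresholds. Without a threshold on fold enrichment that share was 52.5%, against 34% over all protein-coding genes. In replicate 1 alone, 8 ATPase genes reached 2 and 3 reached 3. In replicate 2 alone, 5 reached 2 and 0 reached 3. No count over all genes stands beside these single-replicate counts, so they are not read further. At a fold enrichment of at least 3 the lists gave 6 of 29 other Snf2-family genes and 7 of 14 SWI/SNF accessory genes. They also gave 1 of 13 SWR1 and INO80 accessory genes and 1 of 5 ISWI partners. At least 2 gave 14, 13, 3 and 2 genes in the same order of lists. The counts over all protein-coding genes given above for both thresholds are the background of these. Gene bodies alone gave 9 ATPase genes (without CHR17), against 7971 of 27444 protein-coding genes. A q-value under 1e-05 also gave 9 (without CHR23), against 8902 of 27444. Measured from the start of the transcript for the longest protein, the median summit distance was 267.5 bp in place of 366. With the peak nearest the gene start taken as leading, the median fold enrichment of the ATPase genes stayed at 2.52 in replicate 1. In replicate 2 it was 1.92 in place of 2.04, with INO80 at 1.46 in place of 1.94 and CHR17 at 1.71 in place of 2.09. No median over all called genes is given for that choice. Within 50 bp of the summit the Telobox was found at 1 gene in replicate 1 and 2 in replicate 2 (7.49% and 6.78% of all summits), and GAGA at 0 and 1 (3.23% and 2.78%). Taking each replicate alone, the count of ATPase genes was 10 to 10, that of protein-coding genes 10033 to 10669, the lists 20 to 22, 13 to 13, 7 to 9 and 4 to 4, and the median summit distance 361.5 to 370.5 bp. The causes were not tested. No paired analysis was possible because only the IP group has replicate numbers and peak lists. At the background level, the lowest fold enrichment among the called peaks was 1.53 in replicate 1 and 1.32 in replicate 2.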

Other observations

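Within the list of other Snf2-family genes are remodellers of RNA-directed DNA methylation, a plant pathway in which small RNAs guide methylation to transposons. Of 5 of these genes, picked after their values were seen, 2 had a peak in both replicates, against 34% of all protein-coding genes, a share too close to draw anything from. DRD1, which works with RNA polymerase V, had a mean fold enrichment of 2.32 ± 0.121 (SD, n = 2). CHR40, which encodes CLSY4, had 1.98 in replicate 1 and 1.67 in replicate 2. CHR38, CHR42 and CHR31, which encode the related proteins CLSY1, CLSY2 and CLSY3, had no peak in either replicate. DDM1, needed for methylation in heterochromatin, had 1.87 and 1.81.

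The relatives of PKL differed as well. CHR4, a CHD3-type gene like PKL, had 2.80 and 2.17, with summits 711 and 827 bp downstream of its start, against 2.36 and 1.84 at PKL, whose summits lay at 248 and 233 bp. CHR5, a gene for a CHD1-type remodeller, had 2.14 and 1.82 with its summits at 736 and 640 bp. PKR2 had no peak in either replicate.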
